A study of Mus musculus with 2 samples.

Results

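RAB, ARF and ARL proteins are small GTPases of membrane traffic, and their genes are described here in the inner cell mass (ICM) and the whole blastocyst of the mouse at E3.75, a day of embryonic development at which the cavity has formed. The members are all genes of the deposited table whose symbol is Rab, Arf or Arl followed by a number, with or without a letter. They number 80 of the 19559 genes listed, 56 RAB, 6 ARF and 18 ARL genes. One library was made from whole blastocysts and 1 from ICMs isolated by immunosurgery, in which antibody and complement lyse the outer cells. Both kinds of embryo came from crosses of B6CBAF1 females with CD-1 males, and neither carried a treatment or an engineered allele, as far as the labels say. How many embryos went into a library is not stated in the labels. The whole blastocyst contains its own ICM together with the outer trophectoderm, so the comparison sets one compartment against the whole of which it is a part.

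A small GTPase of this kind works as a switch. An exchange factor (GEF) loads it with GTP, it then recruits effectors such as tethers and motor adaptors to a membrane, and a GTPase-activating protein (GAP) turns it off. RAB proteins are held on membranes by prenyl groups and each marks particular compartments, whereas most ARF proteins carry a myristoyl group and direct the assembly of coats and lipid-modifying enzymes. ARL proteins are ARF relatives with varied roles at the Golgi, lysosome, microtubules and cilium. In the blastocyst, the trophectoderm is an epithelium with an apical surface, active endocytosis and a fluid-filled cavity, and these proteins serve such traffic in epithelia.

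Reads on listed genes summed to 9271198 for whole blastocysts and 4125479 for ICMs. With 1 library of each kind, no difference can be set against a spread between samples. All intervals below are 95% intervals of counting error in these 2 libraries. The cDNA was amplified and no molecular identifiers are described, so reads are not independent molecules and the intervals leave out every other source of error. Where a pair of values is given, the whole blastocyst comes first. The tissue labels were checked on marker genes. Of 5 epiblast markers, 4 passed 2-fold on the higher side in the ICM library, and of 4 primitive endoderm markers 3 did. All 7 trophectoderm markers were at least 2-fold lower, with levels that summed to 1627 and 47.8 RPKM, and Elf5 had no ICM read. Genes of cumulus and uterine cells summed to 44.1 and 3.86 RPKM, mostly from Cyp11a1 (324 reads and none) and Wfdc2 (158 and 7), while Cyp19a1 had no whole-blastocyst read and 91 in the ICM. The genes of blood and immune cells summed to 1.35 and 0.451 RPKM. RPKM divides a gene's reads by its length in kilobases and by a total for the library. Differences are log2((ICM RPKM + 1)/(whole-blastocyst RPKM + 1)), a scale that understates the change of low genes, and a gene called at least 2-fold higher or lower passed 1 on that scale. The fold of a single gene is instead the plain ratio of its RPKM values, so it can exceed 2 for a low gene that was not called. The deposited values differ over most genes, with a median difference of -0.66 over the 3013 genes at 5 RPKM or more in both libraries. That value is called the shift, and differences are also counted relative to it. The ICM total behind RPKM was 0.842 of the whole-blastocyst total, while reads on listed genes were 0.445. Deposited ICM values are thus low for the reads on listed genes. The part of this in the shift was not tested. Folds of single genes below and their intervals use the deposited values and carry that scaling.

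As a set, the GTPase genes were lower in the ICM library about as often as other genes were. Of the 80 members, 57 reached 1 RPKM in a library, 15 had reads but stayed under that level, and 8 had no read. In the ICM 26 of the 57 were 2-fold lower or more (45.6%), against 44.0% of the 8981 genes that reached 1 RPKM. Only Arl2 and Rab28 were at least 2-fold higher (3.51%), against 8.96% of all genes. Relative to the shift, 11 were lower and 7 higher, against 20.5% and 16.9% of all genes, and 11 is 19.3% and 7 is 12.3% of the members. The median difference of the members was -0.86 and that of all genes -0.84. These shares are close to the background for lower genes, so the count of lower members is no result about the GTPases as a class, and what follows describes how the members differ among themselves. In such bulk samples, fewer cells of a type and less RNA per cell cannot be told apart. The trophectoderm markers were lower in the same library as the members described below, and their part in these differences was not tested.

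**Figure D1:**
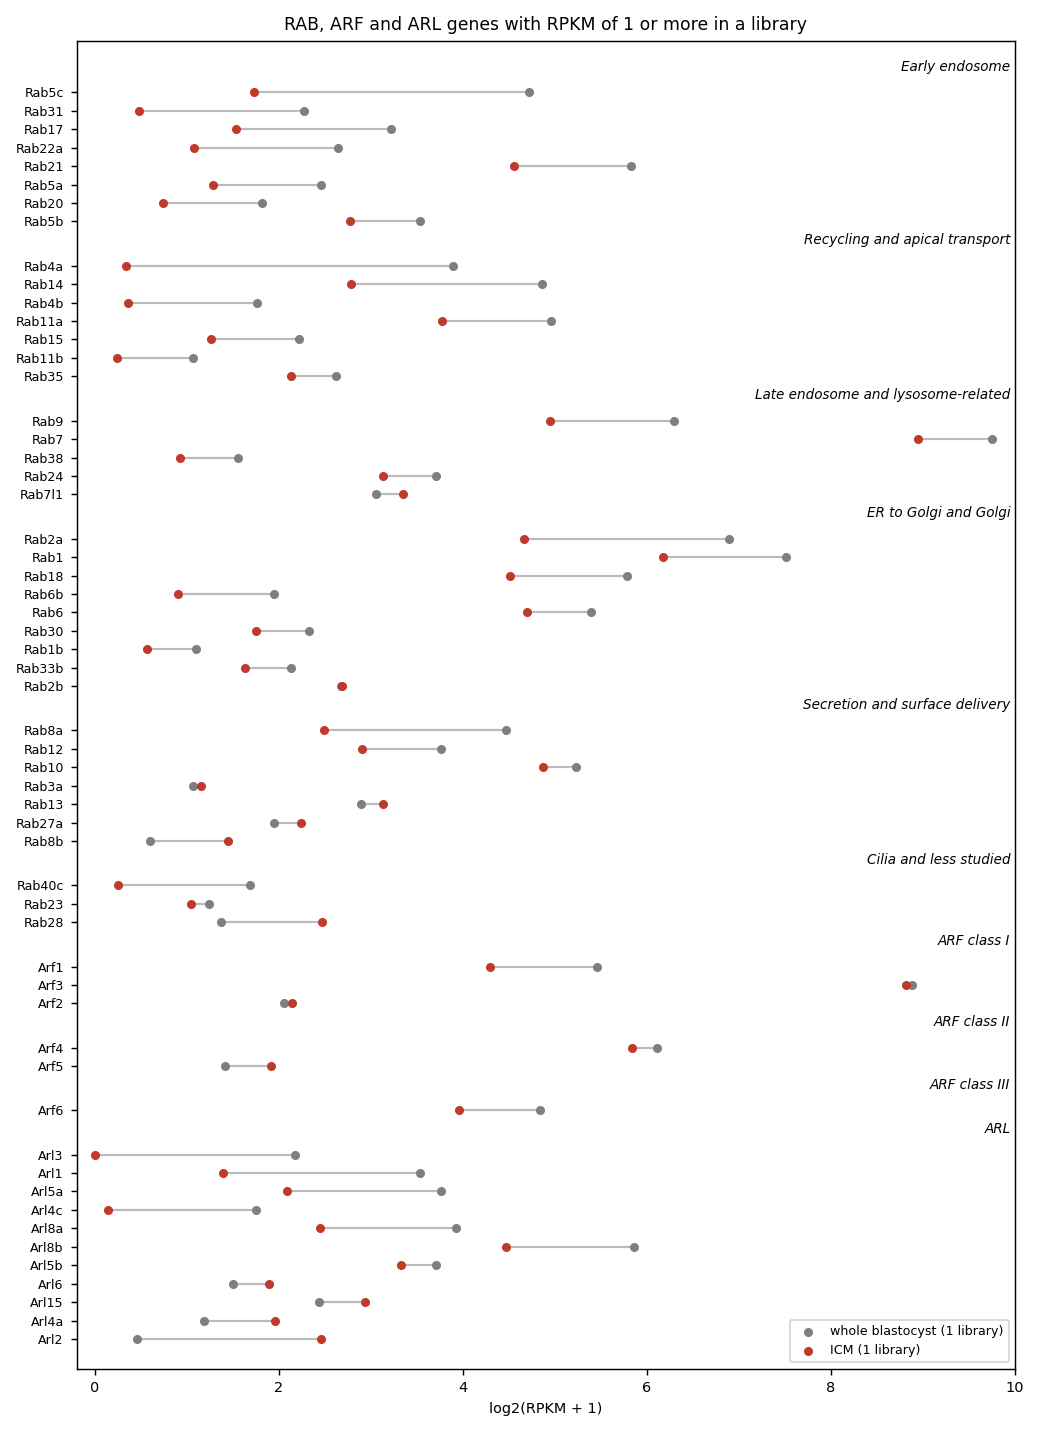
Level of 56 of the 57 members with 1 RPKM or more in a library, as log2(RPKM + 1), with grey points for the whole-blastocyst library and red points for the ICM library, 1 library each. The members are grouped by the compartment they serve. In the early endosome group every red point lies left of its grey point, Arf3 has nearly equal points at 468 and 448 RPKM, and Arl2 and Rab28 have their red points to the right.

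The early endosomal RABs, which serve uptake from the cell surface, were lower in the ICM library in 8 of 8 cases as deposited. So were 6876 of 8981 genes. Of the 8, 7 were at least 2-fold lower (87.5%, against 44.0% of all genes). The median difference of the group was -1.42. Relative to the shift, all 8 still lay below 0, as did 5087 of 8981 genes. At least 2-fold lower were then 3 (37.5%, against 20.5% of all genes). Under the TPM, TMM and median-of-ratios scalings described below, 7 of the 8 lay below 0. So did 6090 of 11602, 4947 of 9387 and 4818 of 9409 genes. At least 2-fold lower under these were 4, 4 and 3 of the 8, against 31.4%, 25.1% and 24.4% of all genes. The levels of the 8 summed to 116 and 36.1 RPKM. RAB5 is the master GTPase of early endosome fusion, and its 3 genes differed from each other. Rab5c had 1023 and 79 reads, or 25.4 and 2.33 RPKM, 10.9-fold lower (8.67 to 13.9). Rab5a had 4.50 and 1.43 RPKM, 3.14-fold lower (2.42 to 4.12). Rab5b had 10.5 and 5.82 RPKM, which is 1.81-fold lower (1.63 to 2.01) and within 2-fold. In the whole blastocyst Rab5c was the highest of the 3 by RPKM, and in the ICM Rab5b was.

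The other early endosomal genes include one known from epithelia. Rab17, an epithelial GTPase of recycling and transcytosis, had 322 and 62 reads and was 4.38-fold lower in the ICM (3.33 to 5.84), at 8.27 and 1.89 RPKM. Rab31 (477 and 42 reads) was 9.57-fold lower (6.97 to 13.5), at 3.82 and 0.399 RPKM. Its close relative Rab22a (274 and 49 reads) was 4.71-fold lower (3.47 to 6.52). Both act between the endosome and the trans-Golgi network. Rab21, which carries integrins inward, was the most abundant of the group, at 55.9 and 22.4 RPKM, 2.49-fold lower (2.31 to 2.69). Rab20, known from phagosomes, had 62 and 14 reads, 3.73-fold lower (2.07 to 7.22).

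The recycling and apical transport genes included Rab4a and Rab14, which were far lower in the ICM library. The ICM held 4 of 7 measured genes at a level at least 2-fold lower (57.1%, against 44.0% of all genes), and the other 3 lay within 2-fold. Their median was -1.18, with 2 still past 2-fold once the shift was taken out (28.6%, against 20.5% of all genes). Rab4a, which returns receptors rapidly from early endosomes to the surface, had 373 and 6 reads. It had 13.9 and 0.265 RPKM, 52.4-fold lower (23.8 to 144), the farthest of the measured members with reads in both libraries. Its relative Rab4b had 40 and 4 reads and was 8.42-fold lower (3.05 to 32.4). Of its windows of 50 bases, 80.3% also occur in the annotated gene Gm21983, so its reads are uncertain.

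Rab14, which links endosomes with the Golgi, had 2832 and 498 reads and was 4.79-fold lower (4.35 to 5.28), at 28.1 and 5.86 RPKM. Rab11a, the GTPase of recycling endosomes and of apical membrane delivery, had 29.9 and 12.6 RPKM, 2.37-fold lower (2.19 to 2.57). Relative to the shift that is a difference of -0.52. Rab11b was at low level in both libraries, at 1.10 and 0.178 RPKM (263 and 36 reads). Rab25, the third RAB11 gene and one usually linked to epithelia, had a single whole-blastocyst read and no ICM read. Rab35, which serves a fast route back to the surface, had 5.14 and 3.39 RPKM, a ratio of 0.659 (0.551 to 0.787) and a difference of 0.17 relative to the shift. Rab15 had 3.65 and 1.40 RPKM, 2.61-fold lower by the plain ratio (2.14 to 3.21).

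The late endosomal and lysosome-related RABs differed less between the libraries. Rab9 alone of 5 measured genes passed 2-fold as deposited, on the lower side (20%, against 44.0% of all genes). None passed 2-fold once the shift was taken out, against 20.5% lower and 16.9% higher of all genes. Under the TPM, TMM and median-of-ratios scalings Rab7l1 was at least 2-fold higher, with differences of 1.27, 1.11 and 1.16. In TPM alone, 1 gene of the group was lower. Rab7, the GTPase of late endosomes and lysosomes, had 859.9 and 493 RPKM. That is 1.74-fold lower (1.65 to 1.85), and relative to the shift the difference is -0.14. Rab9, which returns mannose 6-phosphate receptors to the Golgi, had 77.7 and 29.7 RPKM, 2.61-fold lower (2.45 to 2.79). Rab24, a GTPase linked to autophagy, had 12.04 and 7.74 RPKM, a ratio of 0.643 (0.556 to 0.743). Rab7l1 (current symbol Rab29, the partner of the kinase LRRK2) had nearly the same number of reads in both, 138 and 146, at 7.32 and 9.19 RPKM. Rab38 and Rab32 serve melanosomes and related organelles. Rab38 had 84 and 33 reads, and Rab32 had 27 and none.

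By RPKM Rab7 ranked 8th of all listed genes in the whole blastocyst and 3rd in the ICM, and first among the members in both. That rank rests on the length by which the authors divided. Reads divided by RPKM give that length up to a constant, and the constant was set so that the median of 5870 genes equals its longest transcript in GENCODE M21. The length behind Rab7 was then 0.0995 of its longest transcript and 0.507 of its shortest. Only 44 of the 5870 genes (0.750%) had a share as small or smaller. With reads divided by the longest transcript instead, Rab7 ranked 7th of the 72 members with reads in the whole blastocyst and 6th in the ICM. Arf3, with 60445 and 48718 reads against 3677 and 1777 for Rab7, then ranked first in both, followed by Rab1. Among the other members, the share was 0.195 for Arl1, whose RPKM is therefore also high for its reads, and 5.39 for Arf6, whose RPKM is low for its reads. The length is the same in both libraries, so the ratios between them do not depend on it.

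**Figure D2:**
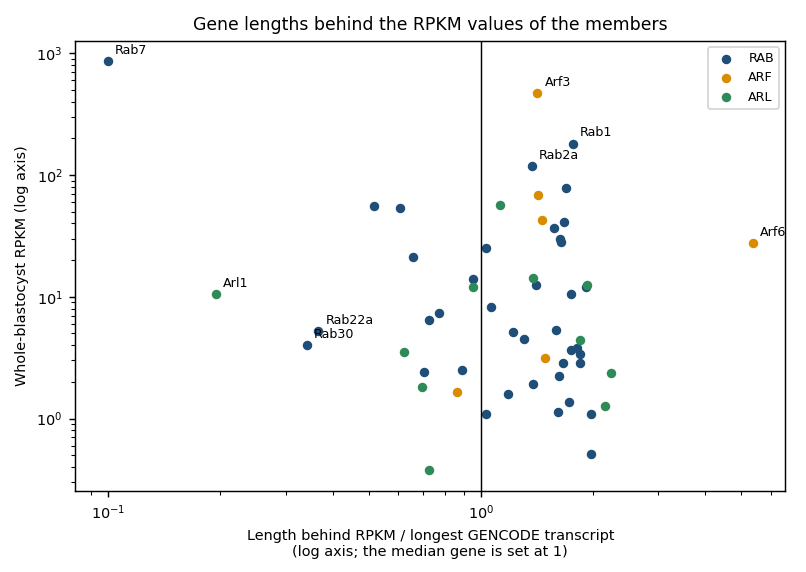
Length behind RPKM as a share of the longest GENCODE transcript (horizontal, log axis, the median of all genes set at 1) against the whole-blastocyst RPKM (vertical, log axis) for 56 of the 57 measured members, coloured by family. Rab7 stands alone at the upper left with a share of 0.0995 and 859.9 RPKM, and Arf6 lies at the right with a share of 5.39.

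RABs of the endoplasmic reticulum and Golgi included some of the most abundant members. Of 9 measured genes, 4 passed 2-fold, lower in the ICM (44.4%, against 44.0% of all genes), and the other 5 lay within 2-fold. With the shift taken out, Rab2a alone passed 2-fold, on the lower side (11.1%, against 20.5% of all genes). Rab1 (current symbol Rab1a), needed for transport from the endoplasmic reticulum to the Golgi, had 17970 and 5967 reads, or 181 and 71.3 RPKM, 2.54-fold lower (2.46 to 2.61). Rab2a, which acts in the same zone and at lysosomes, had 117 and 24.3 RPKM, 4.84-fold lower (4.55 to 5.15). Rab18, a GTPase of lipid droplets and the endoplasmic reticulum, had 53.9 and 21.7 RPKM, 2.48-fold lower (2.33 to 2.63).

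Rab6 (current symbol Rab6a), the GTPase of traffic within and from the Golgi, had 40.8 and 24.9 RPKM. Its ratio was 0.611 (0.580 to 0.643), and relative to the shift its difference was -0.03. Its relative Rab6b, known mainly from neurons, was lower still in level (2.85 and 0.871 RPKM) and 3.27-fold lower in the ICM (2.70 to 3.98). Rab2b was near equal, with 5.37 and 5.45 RPKM and a ratio of 1.01 (0.889 to 1.16). Rab30 and Rab33b, both of the Golgi, had ratios of 0.589 and 0.620, and Rab1b one of 0.424 on 70 and 25 reads.

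The RABs of secretion and surface delivery were mostly within 2-fold as deposited and relative to the shift, but not under every scaling. Rab8a alone of 7 measured genes passed 2-fold, on the lower side (14.3%, against 44.0% of all genes). The median difference of the group was 0.09, and relative to the shift it was 0.75. Relative to the shift, 1 gene was lower and 1 higher (14.3% each, against 20.5% and 16.9% of all genes). In TPM, with TMM and with median of ratios 4, 3 and 3 of the 7 were at least 2-fold higher. Of all genes 24.7%, 19.8% and 20.6% were. Under each of these 1 gene of the group was lower. Rab10, which delivers vesicles to the plasma membrane, had 36.4 and 28.1 RPKM, a ratio of 0.773 (0.736 to 0.813). Rab13, a GTPase of tight junction traffic, had 131 and 134 reads, and its interval of 0.947 to 1.56 included a ratio of 1. Rab27a, which docks lysosome-related and exosome-producing organelles, had 2.87 and 3.74 RPKM, a ratio of 1.31 (1.11 to 1.53). Rab12 had 12.6 and 6.48 RPKM, 1.95-fold lower (1.70 to 2.23).

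Of the RAB3 genes, which serve regulated exocytosis in neurons and gland cells, Rab3a had 35 and 33 reads and the other 3 had at most 17 in either library. Rab27b had 13 reads, all from the ICM library. Rab3a was low, at 1.10 and 1.23 RPKM, and the others were at or near the limit of detection. A library without a read is bounded here by a floor of 3 reads.

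Rab8a and Rab8b stood on opposite sides. RAB8 proteins carry vesicles to the basolateral and apical surface and to the cilium. Rab8a had 1253 and 232 reads, or 21.1 and 4.63 RPKM, 4.55-fold lower in the ICM (3.95 to 5.26). Rab8b had 95 and 271 reads, or 0.509 and 1.72 RPKM, 3.39-fold higher (2.67 to 4.32). By RPKM Rab8a was above Rab8b in both libraries, but by reads per kilobase of the longest GENCODE transcript Rab8b was above Rab8a in the ICM, at 57.3 against 51.0.

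Of the 9 remaining RABs, 3 were measured. Rab28, which is linked to cilia and photoreceptors, had 63 and 152 reads, or 1.58 and 4.52 RPKM, 2.86-fold higher in the ICM (2.12 to 3.91). Rab40c, a RAB with a domain that recruits a ubiquitin ligase, had 179 and 13 reads and was 11.6-fold lower (6.61 to 22.2). Rab23, a negative regulator of Hedgehog signalling, had 1.37 and 1.07 RPKM.

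As deposited, the ARF genes had the median nearest 0 of the 3 families, but under TPM, TMM and median of ratios theirs was the farthest from 0. All 6 were measured, and 1 was at least 2-fold lower (16.7%, against 44.0% of all genes). None was higher, against 8.96% of all genes, and the ARF median difference was -0.17. Relative to the shift the median was 0.49 and 1 gene, Arf5, was at least 2-fold higher (16.7%, against 16.9% of all genes). The direction of this median therefore depends on the scaling. The class I ARFs recruit the COPI coat and clathrin adaptors at the Golgi. Arf3 carried 40.9% and 59.0% of all reads on members, and its 468 and 448 RPKM gave a ratio of 0.957 (0.945 to 0.968). Arf1 had 43.1 and 18.6 RPKM, 2.31-fold lower (2.14 to 2.50). Arf2 was much lower in level, at 3.16 and 3.41 RPKM, and its interval of 0.896 to 1.30 included 1.

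Of the class II ARFs, which act between the endoplasmic reticulum and the Golgi, Arf4 had 68.1 and 56.1 RPKM (ratio 0.824, 0.785 to 0.864). Arf5 rested on 32 and 45 reads (ratio 1.67, 1.04 to 2.71). Arf6, the class III member that acts at the plasma membrane in endocytosis and actin remodelling, had 27.5 and 14.6 RPKM, 1.89-fold lower (1.79 to 1.99). The members as a whole took 1.59% and 2.002% of the reads on listed genes. Without Arf3 the shares were 0.941% and 0.821%, so Arf3 alone sets the direction of that total.

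The ARL genes were spread widely. Of 12 measured genes, 7 passed 2-fold on the lower side and 1 on the higher side, and the other 4 lay within 2-fold. Those are 58.3% and 8.33%, against 44.0% and 8.96% of all genes. With the shift taken out, 4 were lower and 4 higher (33.3% each, against 20.5% and 16.9% of all genes). Arl8b and Arl8a, which couple lysosomes to kinesin, were both lower, Arl8b at 56.9 and 21.04 RPKM (2.70-fold, 2.56 to 2.85) and Arl8a at 14.1 and 4.46 RPKM (3.17-fold, 2.68 to 3.76). Of the Golgi members, Arl1, which recruits golgin tethers, had 85 and 11 reads and was 6.51-fold lower (3.46 to 13.5). Arl5a had 12.6 and 3.24 RPKM, 3.89-fold lower (3.54 to 4.27), whereas its relative Arl5b had 12.1 and 8.99 RPKM, a ratio of 0.746 (0.688 to 0.808).

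The ARLs known from cilia and lipidated cargo went both ways. Arl3, which releases lipidated cargo in the cilium, had 44 whole-blastocyst reads and no ICM read. The exact 95% limit put its level at least 9.63-fold lower. Arl2, which also releases lipidated cargo and takes part in tubulin folding, went the other way, with 7 and 70 reads, 0.377 and 4.48 RPKM, and an 11.9-fold higher level (5.47 to 30.6). Arl6, a partner of the BBSome coat of cilia, had 43 and 54 reads, and its interval of 0.980 to 2.28 included 1. Arl15 had 4.41 and 6.64 RPKM, 1.51-fold higher (1.34 to 1.69).

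Arl4c and Arl4a, which recruit ARF exchange factors to the plasma membrane, formed a pair like Rab8a and Rab8b. Arl4c had 420 and 15 reads, or 2.35 and 0.0998 RPKM, 23.6-fold lower in the ICM (14.1 to 42.5). Arl4a had 204 and 389 reads, or 1.28 and 2.90 RPKM, 2.26-fold higher (1.91 to 2.69). In RPKM, Arl4c was the higher of the pair in the whole blastocyst and Arl4a in the ICM. Arl4d had 25 and 33 reads and stayed under 1 RPKM.

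**Figure D3:**
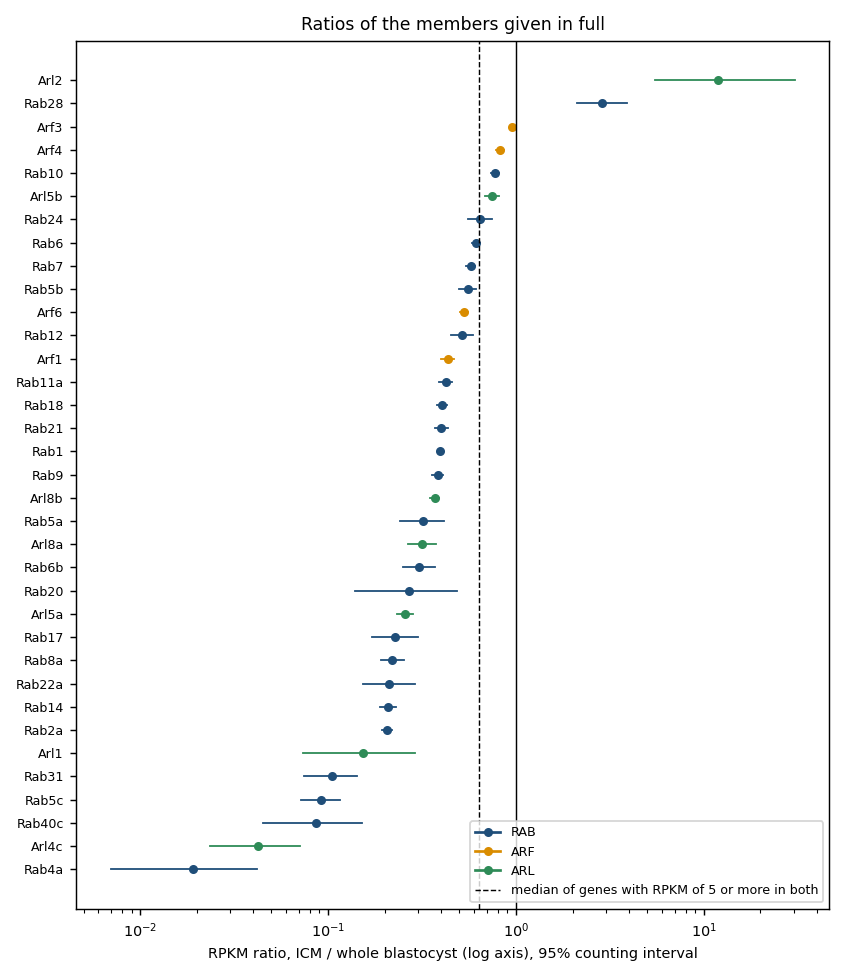
RPKM ratio of ICM to whole blastocyst (log axis) with its 95% counting interval for 35 of the 36 members at 10 RPKM or more in a library or past 2-fold with 50 reads or more. The solid line marks a ratio of 1 and the dashed line the median of genes at 5 RPKM or more in both libraries. All but Arl2 and Rab28 have ratios under 1, from 0.957 for Arf3 down to 0.0191 for Rab4a.

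Near relatives were compared with each other, because the quotient of the ratios of 2 genes depends neither on the scaling of the libraries nor on gene length. In 17 groups of relatives at least 2 genes had reads, and 14 pairs had 50 reads or more in a library for both genes. In each pair the gene with the higher ratio was put first, so the quotients lie above 1 by construction. In 11 of the 14 pairs the interval of the quotient excluded 1, and in 8 its lower bound was above 2. Pairs of unrelated genes were not examined, so these counts say nothing particular about relatives. Some pairs share a gene and are not independent. In 2 pairs the intervals of the genes' own ratios lay on opposite sides of 1 as deposited. The quotient was 53.4 (30.8 to 98.5) for Arl4a over Arl4c and 15.4 (11.6 to 20.4) for Rab8b over Rab8a. It was 6.03 (4.68 to 7.85) for Rab5b over Rab5c, 4.91 (4.24 to 5.68) for Rab2b over Rab2a and 2.90 (2.56 to 3.28) for Arl5b over Arl5a. Rab11a over Rab11b gave 2.60 (1.81 to 3.83) and Arf2 over Arf1 2.49 (2.04 to 3.04). Pairs whose interval included 1 were Arl8b and Arl8a (1.17, 0.982 to 1.40), Arf2 and Arf3 (1.13, 0.936 to 1.35) and Rab1b and Rab1 (1.08, 0.652 to 1.72). An interval that includes 1 does not show that a pair behaved alike, and that of Rab1b and Rab1 rested on 70 and 25 reads of Rab1b.

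**Figure D4:**
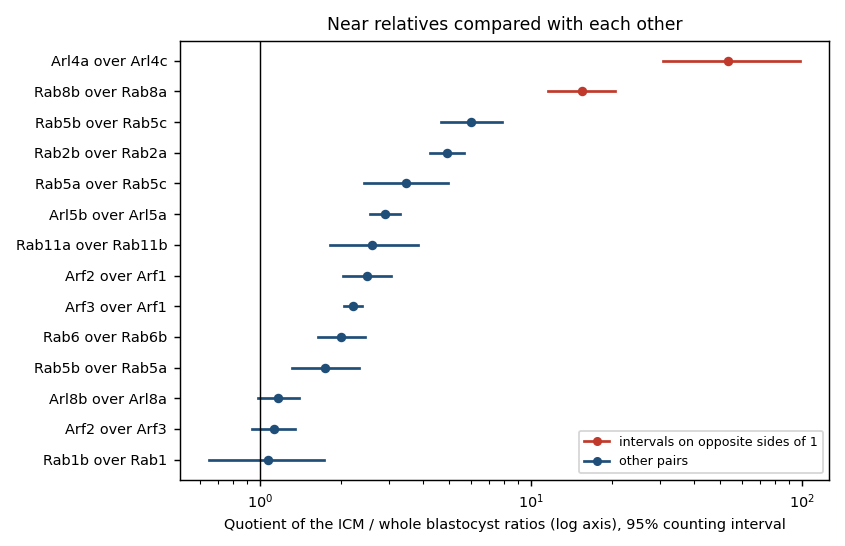
Quotient of the ICM to whole-blastocyst ratios of 2 related genes (log axis) with its 95% counting interval, for the 14 pairs with 50 reads or more in a library for both. The 2 red pairs, Arl4a over Arl4c at 53.4 and Rab8b over Rab8a at 15.4, are those whose genes have intervals on opposite sides of 1, and the 3 lowest pairs have intervals that include 1.

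How far reads of related genes could be confused was examined on the transcripts of GENCODE M21. Of the 80 members, 56 had no window of 50 bases in common with any other annotated gene, and 6 shared 10.5% to 80.3% of their windows. Those 6 were Rab4b, Rab43, Rab5b, Rab7, Arl1 and Arf1, and the windows lie in other annotated genes such as Rab7-ps1 for Rab7. Windows in common with another member were found for 2 members, with at most 2 windows each. The labels do not state the read length, so 50 bases is a choice. Exact stretches in common between coding sequences were short, at most 39 bases (Arf1 and Arf6). The 4 pairs below are shown because the comparison of relatives rests on telling such genes apart. Each line gives the coding strand 5′ to 3′ from GENCODE M21, with the longest identical stretch in capitals and up to 20 bases on either side.
Rab1: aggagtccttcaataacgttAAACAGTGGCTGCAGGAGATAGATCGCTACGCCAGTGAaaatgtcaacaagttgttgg
Rab1b: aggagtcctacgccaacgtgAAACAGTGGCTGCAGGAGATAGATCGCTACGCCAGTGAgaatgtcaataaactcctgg
Rab5a: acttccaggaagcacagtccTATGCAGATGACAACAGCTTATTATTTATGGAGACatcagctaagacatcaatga
Rab5b: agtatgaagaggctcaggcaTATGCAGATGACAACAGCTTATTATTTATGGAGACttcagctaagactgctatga
Arf1: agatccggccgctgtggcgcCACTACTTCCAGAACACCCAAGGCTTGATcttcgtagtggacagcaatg
Arf3: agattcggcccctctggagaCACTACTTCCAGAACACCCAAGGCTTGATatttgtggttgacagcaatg
Rab2a: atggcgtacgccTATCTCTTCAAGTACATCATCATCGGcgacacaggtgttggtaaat
Rab2b: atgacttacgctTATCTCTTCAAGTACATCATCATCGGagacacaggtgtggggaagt
The capitals cover 38 bases in Rab1 and Rab1b, 35 in Rab5a and Rab5b, 29 in Arf1 and Arf3, and 26 in Rab2a and Rab2b, and the bases beside them already differ. For the Rab5 pair shown, the quotient of Rab5b over Rab5a was 1.74 (1.31 to 2.32), and for Arf3 over Arf1 it was 2.21 (2.04 to 2.39).

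The promoters of Rab8a against Rab8b and of Arl4a against Arl4c are shown next, since the intervals of these pairs lay on opposite sides of 1. They were picked after their values were seen. Each line gives the 250 bases before a transcript start from RefSeq on GRCm38.p6, 5′ to 3′ on the strand of the gene. That is not the build of the deposited table, which is mm9. The RefSeq start of Rab8b differs from its GENCODE start. Capitals mark matches on either strand to 6 motifs, namely TATAAA (the TATA box), CCAAT (the CCAAT box), GGGCGG (the GC box), CACGTG (an E-box), TGACGTCA (the cAMP response element) and GGAATG (the TEAD motif), each counted whether or not it overlaps another.
Rab8a promoter, chr8:72160950-72161199, plus strand: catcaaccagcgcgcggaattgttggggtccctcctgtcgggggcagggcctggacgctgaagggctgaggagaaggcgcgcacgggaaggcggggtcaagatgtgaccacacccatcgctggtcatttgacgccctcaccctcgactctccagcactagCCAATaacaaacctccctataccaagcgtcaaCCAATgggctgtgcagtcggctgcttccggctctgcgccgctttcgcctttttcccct
Rab8b promoter, chr9:66919706-66919955, minus strand: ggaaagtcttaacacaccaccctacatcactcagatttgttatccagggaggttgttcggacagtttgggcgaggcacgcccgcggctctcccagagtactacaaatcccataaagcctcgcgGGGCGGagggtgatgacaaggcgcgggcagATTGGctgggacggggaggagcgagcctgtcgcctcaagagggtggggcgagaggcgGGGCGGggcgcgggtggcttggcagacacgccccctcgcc
Arl4a promoter, chr12:40037377-40037626, minus strand: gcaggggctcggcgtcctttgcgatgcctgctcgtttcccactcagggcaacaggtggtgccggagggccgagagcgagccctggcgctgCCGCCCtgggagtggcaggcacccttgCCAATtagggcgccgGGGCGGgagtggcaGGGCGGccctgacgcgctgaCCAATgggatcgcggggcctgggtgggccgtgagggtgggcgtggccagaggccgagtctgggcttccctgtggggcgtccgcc
Arl4a promoter, chr12:40037988-40038237, minus strand: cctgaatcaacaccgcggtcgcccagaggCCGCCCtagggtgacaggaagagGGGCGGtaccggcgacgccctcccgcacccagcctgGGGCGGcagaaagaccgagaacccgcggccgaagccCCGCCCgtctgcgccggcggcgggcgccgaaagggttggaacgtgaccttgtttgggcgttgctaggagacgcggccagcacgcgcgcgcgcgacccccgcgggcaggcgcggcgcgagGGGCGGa
Arl4c promoter, chr1:88702192-88702441, minus strand: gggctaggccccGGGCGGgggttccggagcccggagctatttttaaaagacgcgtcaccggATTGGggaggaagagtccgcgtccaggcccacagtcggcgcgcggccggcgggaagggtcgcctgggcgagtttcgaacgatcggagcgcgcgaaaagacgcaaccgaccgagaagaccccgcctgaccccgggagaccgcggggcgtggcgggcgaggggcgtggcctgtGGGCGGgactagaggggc
None of the 5 windows holds any of the other 4 motifs besides CCAAT and GGGCGG. The window of Rab8a holds CCAAT without GGGCGG, that of Rab8b holds both, as does that of Arl4c, and of the 2 starts of Arl4a one holds both and the other GGGCGG alone. Of 68 members with promoters in the table, 72.9% of the 85 windows hold GGGCGG and 42.4% hold CCAAT. Over the 20148 windows of protein-coding genes these shares are 44.1% and 35.0%. Over the 7941 windows of genes at 1 RPKM or more these shares are 58.8% and 35.4%, against 79.4% and 49.2% for the 63 windows of such members. TATAAA was found in 4.71% of the member windows (4 windows) and 11.2% of the protein-coding ones. At 1 RPKM or more it was in 3.17% of the member windows (2 windows) and 6.26% of those of all genes. Matches describe the letters only.

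The regulators and effectors of these GTPases, taken from lists of known genes, were lower in the ICM about as often as all genes as deposited and with the shift taken out, and more often in TPM. The 102 measured genes of 146 listed included 44 that were 2-fold lower or more and 6 higher (43.1% and 5.88%, against 44.0% and 8.96% of all genes). Once the shift was taken out they were 22 and 19 (21.6% and 18.6%, against 20.5% and 16.9% of all genes). The lower share was 41.3% against 31.4% of all genes in TPM, 29.5% against 25.1% with TMM and 28.6% against 24.4% with median of ratios. Among 20 measured RAB effectors 14 were 2-fold lower or more (70.0%, against 44.0% of all genes) and 1 was higher, with a median of -1.51. Under the other 4 scalings described below, 8 to 13 of 20 to 25 measured effectors were lower. The share of all genes that were lower ran from 20.5% to 31.4% under those 4. The effector median lay between -1.01 and -0.77. The genes named from each list have the largest differences on it, so they do not stand for the list. Rab11fip5, an adaptor of RAB11 endosomes, had 2892 and 18 reads and was 135-fold lower (85.5 to 229), at 28.4 and 0.210 RPKM. The related adaptor Rab11fip4 was 10.1-fold lower (8.51 to 11.96), and Myo5b, the myosin motor that RAB11 and RAB8 recruit for apical transport, 8.24-fold lower (6.74 to 10.2). Bicd2, a dynein adaptor that binds RAB6, was 12.4-fold lower (9.09 to 17.4). Rab11a itself was 2.37-fold lower. The adaptors and Myo5b were named for their large differences, so that they exceed Rab11a follows from how they were picked.

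Of 7 measured factors that carry RABs to and from membranes, 3 passed 2-fold, all on the lower side (42.9%, against 44.0% of all genes). With the shift taken out none was lower by 2-fold, against 20.5% of all genes. Chm, which encodes the escort protein REP1, was 7.51-fold lower (5.29 to 10.98). Gdi2, a GDP dissociation inhibitor that extracts RABs from membranes, had 59.8 and 27.3 RPKM, 2.19-fold lower (2.06 to 2.34). Rabggtb, the catalytic subunit of the RAB prenyltransferase, had 241 and 126 RPKM.

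Of 16 RAB exchange factors, 7 were 2-fold lower or more (43.8%, against 44.0% of all genes) and none higher, against 8.96%. With the shift taken out 4 were lower and 3 higher (25% and 18.8%, against 20.5% and 16.9% of all genes). Rabgef1, the RAB5 exchange factor Rabex-5, was 5.28-fold lower (4.18 to 6.72), and Rab3il1, which activates RAB8 among others, 14.8-fold lower (8.30 to 29.1). Dennd2d had 74 whole-blastocyst reads and no ICM read. AU022870 (current symbol Ccz1), part of the exchange factor of RAB7, was 9.92-fold lower (6.87 to 14.8). Of 24 RAB GAPs, 8 were lower and 1 higher (33.3% and 4.17%, against 44.0% and 8.96% of all genes). With the shift taken out they were 6 and 6 (25% each, against 20.5% and 16.9% of all genes). Tbc1d20, a GAP of RAB1 and RAB18, had 301 and 5 reads, and Rab3gap1 was 10.1-fold lower (7.61 to 13.6). Tbc1d23 and Tbc1d8 were 13.0-fold and 6.97-fold lower.

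On the ARF side, 5 of 7 exchange factors were at least 2-fold lower as deposited (71.4%, against 44.0% of all genes). With the shift taken out 1 was (14.3%, against 20.5% of all genes). With TMM and with median of ratios 2 of 7 were, where 25.1% and 24.4% of all genes were lower. In TPM 5 of 8 measured were, where 31.4% of all genes were lower. None of these exchange factors was higher. Iqsec1, an ARF6 exchange factor, had 352 reads and 1 read, a ratio of 0.00337 (8.51e-05 to 0.0189). Cyth2, an ARF exchange factor of the plasma membrane, was 12.4-fold lower (6.36 to 27.8), Psd4 4.10-fold and Arfgef1, which acts at the trans-Golgi, 2.999-fold. Of 17 ARF GAPs, 6 were lower and 3 higher (35.3% and 17.6%, against 44.0% and 8.96% of all genes). With the shift taken out they were 3 and 3 (17.6% each), near the 20.5% and 16.9% of all genes. Asap1 was 4.17-fold higher in the ICM (3.52 to 4.97), while Ddef2 (current symbol Asap2) was 3.89-fold lower (3.61 to 4.19), Adap2 6.48-fold and Agfg1 3.69-fold. Of 11 ARF and ARL effectors, 1 was lower, the golgin gene Golga4 at 2.36-fold (2.15 to 2.60), and 1 higher, the clathrin adaptor gene Gga3 at 2.60-fold (2.21 to 3.07). As deposited those are 9.09% each, against 44.0% and 8.96% of all genes. With the shift taken out, none of the 11 was lower and 4 were higher (36.4%, against 16.9% of all genes). Golga1, whose product ARL1 recruits, was 5.94-fold lower by the plain ratio. Pde6d, which binds lipidated cargo that ARL2 and ARL3 release, had 94 and 167 reads, 2.11-fold higher (1.63 to 2.74).

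Related GTPases that the symbol rule does not take were also read. Of 8 measured, 1 was at least 2-fold lower, the COPII GTPase gene Sar1a at 2.94-fold (2.64 to 3.28), and 3 were higher. Those are 12.5% and 37.5%, against 44.0% and 8.96% of all genes. Rabl5, an intraflagellar transport gene now called Ift22, had 37 and 157 reads and was 5.04-fold higher (3.50 to 7.42), and Rabl2a 3.25-fold higher (2.61 to 4.06). Rabl3 had 21.2 and 12.1 RPKM.

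Which of these differences hold depends on how the 2 libraries are scaled to each other, so 5 scalings were compared: as deposited, centred on the shift, TPM, TMM and median of ratios. Of the 57 measured members, 41 kept the sign of their difference under all 5. The 10 members at least 2-fold lower under all 5 included Rab4a, Rab5c, Rab31, Rab17, Rab2a, Rab14, Rab8a, Arl1 and Arl3. The share of all genes lower under all 5 is not given here. Arl3 had no ICM read, so TMM and median of ratios left its difference at -2.18 as deposited, and its place is no check. Arl2 and Rab28 were at least 2-fold higher under all 5. The other 4 scalings all raise ICM values relative to the whole blastocyst. Members above 0 or called higher as deposited therefore stay so by construction, and this is no check on them. Of the members past 2-fold, 92.9% were lower as deposited, against 61.1% when centred, 58.3% in TPM and with TMM, and 56.5% with median of ratios. The median of the early endosome group lay between -1.42 and -0.76, and no member of that group was 2-fold higher under any scaling. The median of the recycling group lay between -1.28 and -0.52, and that of the secretion group between 0.09 and 1.01. The ARF median was -0.17 as deposited and between 0.49 and 0.79 under the other 4, and Arf3, Arf4, Arf6, Rab7, Rab6 and Rab10 were among the 16 members whose sign was not the same under all 5. Rab8a and Arl4c stayed below 0 under all 5. Rab8b and Arl4a stayed above 0, which follows from their deposited values.

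**Figure D5:**
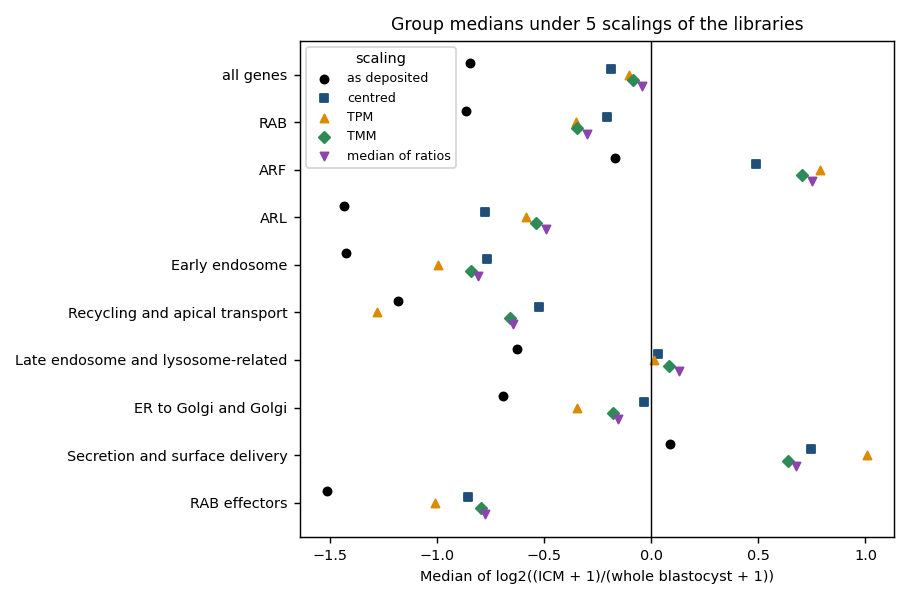
Median log2 difference between ICM and whole blastocyst (horizontal) of all genes, the 3 families, the RAB groups and the RAB effectors under 5 scalings, 1 symbol each. The early endosome, recycling and effector medians stay left of 0 under each scaling, while the ARF median is -0.17 as deposited and right of 0 under the other 4.

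Levels of the members ran in a similar order in both libraries, with a Spearman correlation of 0.753 across the 57 measured members and 0.668 across the 8981 genes. Genes are not independent replicates, and the points share length and library. In the whole blastocyst 25 members reached 10 RPKM, and 14 did in the ICM. All 25 were lower in the ICM as deposited, and 15 of them (60.0%) at least 2-fold, against 55.1% of the 3298 genes at that whole-blastocyst level. Picking genes on their whole-blastocyst level favours lower ICM values, so that direction is no result about the 25. Arf3, Arf4, Rab10, Rab6 and Rab7 were among those above 0 under TPM, TMM and median of ratios. The members without a read in either library were Rab3b, Rab33a, Rab34, Rab37, Arl5c, Arl9, Arl10 and Arl11. Among the 15 with reads under 1 RPKM, Rab43 had 154 and 5 reads, but 77.0% of its windows lie in the annotated gene Gm45140 too. Arl16 had 56 reads and 1 read. Besides these and Arl4d, Rab25, Rab32, Rab27b, Rab3c and Rab3d, they were Rab9b, Rab19, Rab36, Rab39, Rab39b, Rab40b and Rab44, and none of the 15 had more than 154 reads in a library.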

How the data were processed

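RNA was measured in 2 samples, 1 library of whole blastocysts and 1 of ICMs, using PicoPure extraction, NuGEN Ovation amplification and SOLiD fragment libraries, per the labels' protocols. For each gene, 2 kinds of value were deposited per library, a read count and an RPKM, per the file headers. The submitters' processing notes name mm9. The sources used here do not name an aligner or annotation, nor how strand or reads with several matches were handled. From the deposited RPKM and counts, the ICM total behind RPKM was 0.842 of the whole-blastocyst total, while the summed reads gave 0.445.

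Members were found by symbol. All 80 matched RefSeq names of GRCm38.p6, 3 of them by an older symbol. RefSeq also lists Rab1 as an older name of Rnase4, which has its own row. The members, their roles and the gene lists were chosen with earlier results of these data known. Every member may be named, and full values go to those at 10 RPKM or more or past 2-fold with 50 reads. Values of 1 member and 1 regulator are not reported here, though counts and medians include them. Others given with values were picked after their values were seen. Up to 4 genes of each regulator list with 50 reads and the largest difference are named. Ratio intervals are exact conditional (Clopper-Pearson) 95% intervals, and quotients of ratios have exact conditional intervals. A library without a read is bounded by the exact limit and by a floor of 3 reads. With 1 library per group no test was run and no p-value computed. Computations were tested on simulated counts and done in Python 3.11.15 with scipy 1.17.1, and edgeR 4.0.16 gave TMM factors only. Alternatives were 4 scalings, pseudocounts of 0.1 and 5, no filter, a minimum of 5 RPKM and a minimum of 50 reads.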

Additional observations from a re-analysis of the deposited data

How the results depend on the processing

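No paired analysis was possible because each group holds 1 library. The 26 lower and 2 higher members became 11 and 7 when centred, 21 and 15 in TPM, 14 and 10 with TMM, 13 and 10 with median of ratios, 30 and 4 with a pseudocount of 0.1, 14 and 0 with one of 5, and 17 and 0 at 5 RPKM or more. Without a filter and with 50 reads or more they were 26 and 2 and 24 and 2. The RAB median was -0.21 centred, -0.35 in TPM and with TMM, -0.30 with median of ratios, -1.24 and -0.48 with pseudocounts of 0.1 and 5, -0.58 unfiltered and -1.23 at 5 RPKM. In the same order of scalings the ARF median was 0.49, 0.79, 0.70 and 0.75, and it was -0.57 at 5 RPKM and -0.28 with 50 reads. The ARL median was -0.77, -0.58, -0.54 and -0.49, then -1.54 and -0.65 with the pseudocounts and -0.19 unfiltered. For the regulators, 44 lower and 6 higher became 22 and 19 centred, 50 and 22 in TPM, 31 and 20 with TMM, and 30 and 20 with median of ratios. Pseudocounts of 0.1 and 5 gave 57 and 11, and 18 and 1, and at 5 RPKM they were 26 and 5, which is 59.1% lower against 48.7% of all genes. Scaling moved the median of genes at 5 RPKM or more in both libraries from -0.66 to 0.26 in TPM, 0.18 with TMM and 0.22 with median of ratios. Fewer genes enter under a stricter filter, and a larger pseudocount shrinks low genes by construction. The cause of the other changes was not tested. Rab7 ranked 7th and 6th with the longest transcript, an alternative chosen after seeing the data. Depth limits the 4 measured members with under 50 reads in both libraries, which are Arf5, Arl3, Rab3a and Rab4b.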
